A study of Homo sapiens with 68 samples.

Results

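The transcripts described here come from 10 human genes: SRSF1 (ENSG00000136450), SRSF2 (ENSG00000161547), SRSF3 (ENSG00000112081), SRSF4 (ENSG00000116350), SRSF5 (ENSG00000100650), SRSF6 (ENSG00000124193), SRSF7 (ENSG00000115875), SRSF11 (ENSG00000116754), TRA2A (ENSG00000164548) and TRA2B (ENSG00000136527). They were chosen by Ensembl gene identifier, not by any measured value, and every listed binding peak that carries one of these identifiers was counted. All 10 genes had peaks, out of 22843 genes with a peak in the series. SR proteins bind exonic RNA through RNA recognition motifs and recruit the spliceosome through a domain rich in arginine and serine, and the TRA2 proteins are built in a related way. Many of these genes control their own expression: they carry highly conserved exons or introns whose inclusion or retention introduces a premature stop codon and sends the transcript to nonsense-mediated decay. Members of the hnRNP family, such as hnRNPA1, hnRNP C and PTBP1, often oppose SR proteins at splice sites, and RBFOX2 binds GCAUG elements near alternative exons.

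The lists come from TLC-CLIP, in which proteins are crosslinked to RNA in living cells with UV-C light and immunoprecipitated, and the attached RNA is sequenced. HEK293T, a human embryonic kidney line, was the only cell source, and the peak lists hold no expression levels from which that identity could be checked. The series holds 68 libraries in 34 groups of 2 replicates, with antibodies against hnRNPA1, hnRNP C (hnRNPc), hnRNPI (the other name of PTBP1, a binder of pyrimidine-rich RNA) and RBFOX2 (antibody named RBM9). The labels do not say that replicates came from separate cultures, so p-values measure only the spread between these samples. The main comparison used the 16 crosslinked libraries of 50000 cells and 0.005 U RNase that skipped PAGE (gel purification of the complexes), 4 per protein: 2 without further treatment and 2 with RecJ, an exonuclease that removes leftover adapter. The comparison without crosslinking used the 8 libraries titled noUV that also skipped PAGE, at the same cell and RNase labels, against the 8 crosslinked libraries without RecJ. The noUV libraries carry the same protocol text as the others, and their accessions lie in a separate run, so a preparation batch and the lack of crosslinking cannot be told apart.

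List length differed between the proteins and bears on every share given here. The RBFOX2 lists were the shortest, with 157375 to 161434 peaks, and those of hnRNPI held 335107 to 353415, those of hnRNPc 379280 to 487908 and those of hnRNPA1 450313 to 523402. The number of sequenced reads is unknown. The level of a gene is its number of peaks per 100000 peaks listed for that library, so a gene with a constant number of peaks has a higher level in a shorter list. Differences are therefore also given from lists shortened to one length by keeping the peaks with the smallest listed p-values, with ties ordered by reads. The lengths were 157375 peaks between proteins and 44086 for the comparison without crosslinking. This setting was chosen after the data were seen and is called equal list length.

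Together the 10 genes held 264 to 281 peaks in the hnRNPA1 libraries, 258 to 288 in the hnRNPc libraries, 179 to 194 in the RBFOX2 libraries and 103 to 110 in the hnRNPI libraries. The hnRNPI libraries were the lowest, with no overlap, although their lists were longer than those of RBFOX2. Scaled to list length, the 10 genes took 111 to 123 of every 100000 peaks for RBFOX2, 58.6 to 68 for hnRNPc, 52.5 to 60.2 for hnRNPA1 and 30.1 to 32.8 for hnRNPI.

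Sites were defined to say where each protein was found. Peaks of the 4 crosslinked libraries of a protein that shared at least 1 nt were joined, and a site was kept when all 4 libraries contributed. Coordinates are hg19, the build in the submitters' processing notes. Exon, intron and UTR boundaries of that build were not used here, so positions are given as a percentage of the span between the outermost listed peaks of the gene, from 5′ to 3′. A site was ranked by the percentile of its read number among all peaks of the same list. The authors' lists give this number at the end of the peak name. It is the peak's own value, and its reading as reads is inferred.

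The 10 genes held 143 sites of hnRNPA1, 119 of hnRNPc, 82 of RBFOX2 and 39 of hnRNPI. Most hnRNP C sites, 53.8%, overlapped no site of another protein, against 46.9% for hnRNPA1, 43.9% for RBFOX2 and 30.8% for hnRNPI. These shares depend on how many sites the other proteins have. No share over all genes was taken, so they do not rank the proteins by exclusiveness. hnRNPA1 sites covered 43.9% of the RBFOX2 sites and RBFOX2 sites 25.2% of the hnRNPA1 sites, which is 36 of 82 and 36 of 143. hnRNPA1 and hnRNPc sites overlapped at 33.6% of the former and 35.3% of the latter. Sites at the 99th percentile or above numbered 2 in RBFOX2, 3 in hnRNPI, 45 in hnRNPc and 48 in hnRNPA1, and lists of different lengths make these numbers a description within each protein only.

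**Figure D1:**
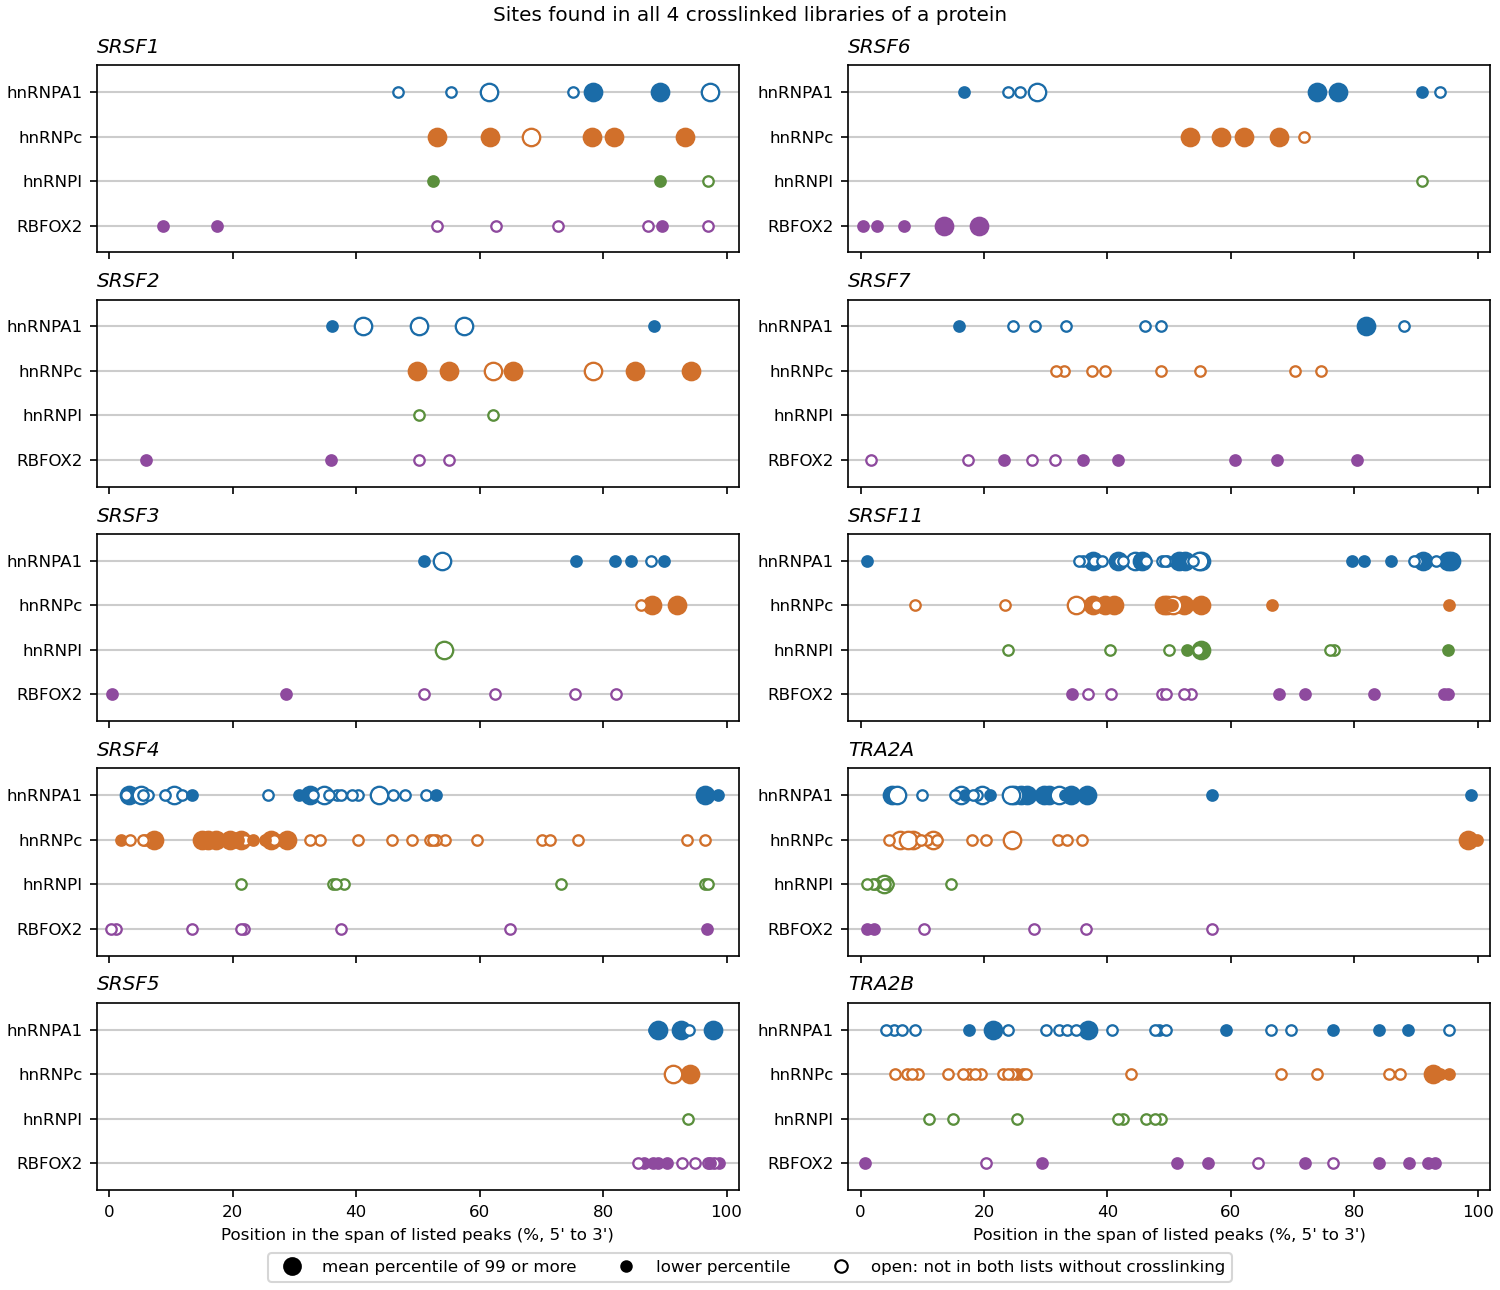
Sites of the 4 proteins in each of the 10 genes, placed by percentage of the span of listed peaks from 5′ to 3′. Each circle is 1 site found in all 4 crosslinked libraries of a protein. Large circles have a mean percentile of 99 or more, and filled circles were also found in both libraries without crosslinking and PAGE. All 7 hnRNPI sites in TRA2A and all 5 RBFOX2 sites in SRSF6 lie in the first 20% of the span, and SRSF7 has no hnRNPI site.

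TRA2A, which encodes a splicing activator that binds purine-rich exonic RNA, carried the strongest hnRNPI site among the 10 genes. It lay on the minus strand at chr7:23570527-23570816, at 3.73% of the span. Its highest peak had 421 and 459 reads in the libraries without RecJ and 334 and 325 with it, all within the top of their lists (mean percentile 99.8). No hnRNPA1 or hnRNPc library had a peak there, and 1 of 4 RBFOX2 libraries did, with 34 reads. All 7 hnRNPI sites of TRA2A lay in the first 20% of the span. The leading RBFOX2 site, chr7:23571212-23571479, lay further 5′, with 96 to 146 reads, and all 4 hnRNPI libraries had a weaker peak there of 27 to 32 reads. The leading hnRNPA1 site was elsewhere, at chr7:23561569-23561728 with 175 to 244 reads, and all 4 RBFOX2 libraries had 117 to 130 reads over it. The leading hnRNPc site lay at the other end of the gene, at chr7:23544627-23545118, with 201 to 234 reads.

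TRA2B encodes the paralogue of TRA2A and is known for an autoregulatory poison exon. Its leading hnRNPI site, chr3:185652398-185652593 on the minus strand, had 115 to 143 reads. No hnRNPA1 or RBFOX2 library had a peak there, and 2 of 4 hnRNPc libraries did. TRA2B held 23 sites of hnRNPA1 and 23 of hnRNPc, 12 of RBFOX2 and 8 of hnRNPI, and no position was shared by all 4 proteins. The leading sites of hnRNPA1 (chr3:185647388-185647747, 115 to 166 reads) and of hnRNPc (chr3:185635123-185635513, 74 to 140 reads) did not coincide.

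SRSF3, the smallest SR protein, regulates the inclusion of a poison exon in its own transcript. In the middle of the gene, hnRNPI had its only site, chr6:36566872-36567163 on the plus strand, with 182 to 237 reads and a mean percentile of 99.5. The leading hnRNPA1 site, chr6:36566928-36567098, lay inside it, with 81 to 122 reads. No hnRNPc or RBFOX2 library had a peak over the hnRNPI site. The leading RBFOX2 site, chr6:36566683-36566780, lay just 5′ of it with 35 to 47 reads. The 3 hnRNPc sites all lay in the last 20% of the span, and the leading one, chr6:36569957-36570310, had 372 to 453 reads.

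SRSF6 encodes an SR protein that acts in constitutive and alternative splicing. All 5 RBFOX2 sites lay in the first 20% of the span. The strongest, chr20:42087530-42087792 on the plus strand, had 983 and 708 reads without RecJ and 735 and 859 with it. hnRNPA1 had 71 to 105 reads there in all 4 libraries, and no hnRNPc or hnRNPI library had a peak. Of these RBFOX2 sites, 4 overlapped no site of another protein. None of the 5 hnRNPc sites overlapped a site of another protein, and the leading one, chr20:42089705-42089953, had 196 to 213 reads. The leading hnRNPA1 site, chr20:42090685-42090844, had 245 to 325 reads and no peak of any other protein. The only hnRNPI site was weak, with 6 to 12 reads at chr20:42091660-42091767, and hnRNPA1 had 60 to 93 reads over it in all 4 libraries.

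SRSF7, a zinc-knuckle SR protein, had no hnRNPI site, while hnRNPA1 and hnRNPc had 8 each and RBFOX2 had 10. Its hnRNPI libraries listed 3, 2, 4 and 3 peaks, of which the strongest had 8 to 13 reads. The leading hnRNPA1 site was chr2:38972140-38972323 on the minus strand, with 84 to 158 reads. The leading hnRNPc site, chr2:38974644-38974857, had 50 to 72 reads, and the leading RBFOX2 site, chr2:38975719-38975796, had 43 to 56.

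SRSF1, one of the first SR proteins described, was covered mostly toward its 3′ end. The strongest hnRNPA1 site of all 10 genes was chr17:56081194-56081372 on the minus strand, with 830 and 1011 reads without RecJ and 804 and 876 with it. All 4 proteins had peaks there in all 4 libraries: hnRNPc with 405 to 529 reads, RBFOX2 with 44 to 78 and hnRNPI with 13 to 30. The RBFOX2 libraries differed by leading at the 5′ end, at chr17:56084108-56084570 with 173 to 262 reads, where no hnRNPA1 or hnRNPc library had a peak. All 3 hnRNPI sites of SRSF1 were shared with the other 3 proteins.

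SRSF11, an SR-related protein, had the longest span of the 10 genes, 46.9 kb, and 24 to 31 hnRNPI peaks per library. Its middle was occupied by all the proteins. The leading hnRNPc site was a long joined interval, chr1:70695521-70696638 on the plus strand, with 315 to 417 reads. The leading RBFOX2 site, chr1:70696241-70696647 with 348 to 385 reads, overlapped it. hnRNPI led a little further 3′, at chr1:70697227-70697502 with 219 to 266 reads, where hnRNPA1 had 152 to 206 and hnRNPc 239 to 488 reads and no RBFOX2 library had a peak. The leading hnRNPA1 site lay near the 3′ end, at chr1:70716049-70716186 with 242 to 453 reads, and all 4 proteins had peaks over it.

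In SRSF4, one of the longer SR proteins, hnRNPc had 33 sites and hnRNPA1 27, against 8 for RBFOX2 and 7 for hnRNPI. The leading hnRNPI site, chr1:29495245-29495483 on the minus strand with 90 to 118 reads, lay within the leading RBFOX2 site, chr1:29495224-29495585 with 30 to 50 reads. Only 2 of 4 hnRNPA1 libraries and 1 of 4 hnRNPc libraries had a peak over it. SRSF2 encodes a nuclear SR protein that regulates its own splicing. At mid-gene all 4 proteins shared 1 position. There hnRNPA1 had 110 to 150 reads at chr17:74731768-74731889 and hnRNPc 123 to 158 at chr17:74731775-74731904. RBFOX2 had 90 to 119 at chr17:74731773-74731877 and hnRNPI only 7 to 9 at chr17:74731780-74731883. The leading sites lay elsewhere. Those of hnRNPA1 (chr17:74731537-74731737, 117 to 143 reads) and RBFOX2 (chr17:74732182-74732566, 128 to 148 reads) did not coincide. The leading hnRNPc site, chr17:74730861-74731108, had 155 to 198 reads and no hnRNPI or RBFOX2 peak. The leading hnRNPI site, chr17:74731376-74731502, had 15 to 23 reads and no hnRNPA1 or RBFOX2 peak. SRSF5 encodes another SR activator. Its span of listed peaks starts at chr14:70210646, far 5′ of its sites, and all 19 of them lay in the last 20%. The leading hnRNPA1 site there, chr14:70236491-70236778 on the plus strand, had 278 to 361 reads, and the only hnRNPI site, chr14:70236785-70237200, had 44 to 66 reads and was shared by all 4 proteins.

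The comparison of peak levels asked which protein's lists gave more or less of their peaks to each gene. Each protein was set against the mean of the other 3 with limma on log2(peaks per 100000 + 0.5) and Benjamini-Hochberg adjustment over 13991 genes. All 10 genes had a mean of at least 1 peak and were tested. The comparisons share libraries, so one protein's difference is part of the others'.

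**Figure D2:**
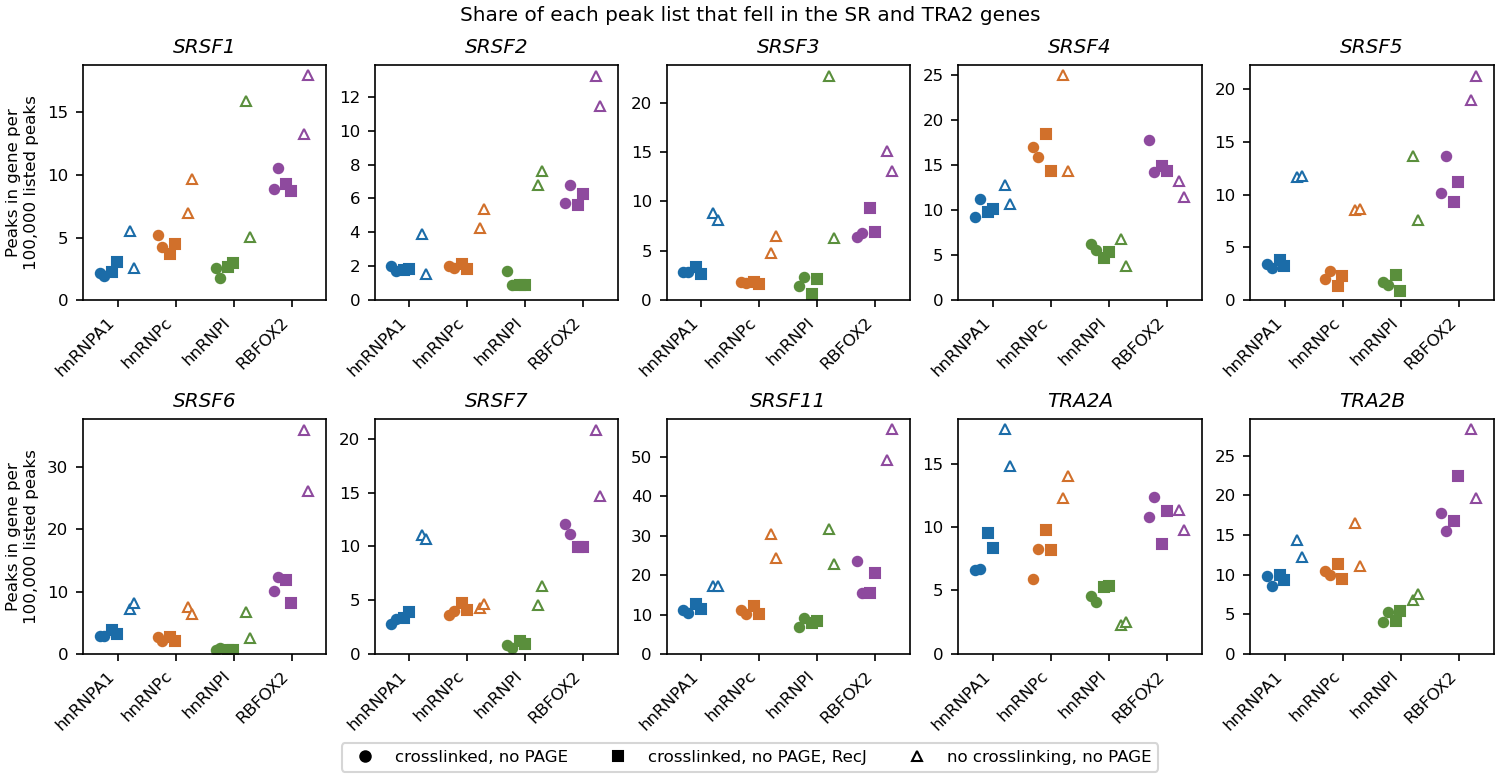
Peaks per 100000 listed peaks in each gene, 1 panel per gene with its own linear axis from 0. Filled circles and squares are the 2 crosslinked libraries without and the 2 with RecJ, and open triangles the 2 libraries without crosslinking, all without PAGE. Among the crosslinked libraries, those of hnRNPI lie lowest with no overlap in every panel but SRSF1, SRSF3 and SRSF5. Those of RBFOX2, whose lists are the shortest, lie highest in every panel but SRSF4 and TRA2A. The share of all genes that separate in these ways was not counted.

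All 10 genes were lower in the hnRNPI libraries. In all 13991 genes, 44.1% were lower and 75.1% were called in either direction, so calls are common here. The log2 difference ran from -0.69 (SRSF11) to -2.10 (SRSF7), with a median of -1.18 over the members and -0.18 over all genes. SRSF7 had 0.849, 0.585, 1.17 and 0.895 peaks per 100000 in the hnRNPI libraries, against 2.80 to 3.85 for hnRNPA1, 3.63 to 4.75 for hnRNPc and 9.94 to 12.1 for RBFOX2. The hnRNPI values did not overlap those of any other protein (limma adjusted p = 6.46e-11, 4.28-fold lower). SRSF6 followed, with 0.566, 0.877, 0.584 and 0.597 against at least 2.05 in every other library (log2 difference -2.08, limma adjusted p = 3.01e-10). With equal list length all 10 were again lower, where 44.9% of all genes were, and the differences were larger, from -0.86 to -4.40. In those shortened lists SRSF6 and SRSF7 had no hnRNPI peak in any of the 4 libraries, while each other protein had at least 10 per library, so their fitted differences are no bound on a fold. When the read numbers in the peak names were summed in place of counting peaks, all 10 genes were lower once more, where 40.8% of all genes were. In the separate libraries with PAGE none of the 10 was called, where 8.77% of all genes were, and all 10 were lower once 1 hnRNPc list of only 3268 peaks was left out, where 30.8% of all genes were.

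In the RBFOX2 libraries all 10 genes were higher over the full lists, where 43% of all genes were higher and 84.2% called, but with equal list length 6 were higher and 2 lower, where 46.4% and 29.6% of all genes were. The genes higher in both settings were SRSF1, SRSF2, SRSF3, SRSF5, SRSF6 and SRSF7. SRSF6 had the largest difference, with 10.2, 12.4, 11.8 and 8.11 peaks per 100000 in the RBFOX2 libraries against 0.566 to 3.78 in those of the other proteins, with no overlap (log2 difference 2.26, limma adjusted p = 2.61e-11, and 1.74 with equal list length). SRSF7 differed by 1.97 and SRSF5 by 2.08 over the full lists, and by 1.62 and 1.03 with equal list length. SRSF11 and TRA2A changed sign: SRSF11 went from 0.86 to -0.42 and TRA2A from 0.65 to -0.43, and both equal-length values passed the test (limma adjusted p = 0.000497 and 0.00490). SRSF4 and TRA2B were not called with equal list length, at -0.11 and -0.03. With summed read numbers 4 genes were higher and 5 lower, where 25.3% and 68% of all genes were. In the libraries with PAGE none was called, where 16.7% of all genes were, and 6 were higher without the short hnRNPc list, where 36.2% of all genes were.

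The calls for hnRNPA1 and hnRNPc depended on list length. In hnRNPA1, only SRSF1 was called over the full lists. It had 1.91 to 3.04 peaks per 100000 against 8.73 to 10.5 for RBFOX2, 3.69 to 5.21 for hnRNPc and 1.75 to 2.98 for hnRNPI, and was 1.85-fold lower than the mean of the others (log2 difference -0.89, limma adjusted p = 3.27e-05), where 23.1% of all genes were lower and 53.6% called. The hnRNPA1 and hnRNPI values overlapped. With equal list length SRSF1 was not called (0.20), and the other 9 genes were all higher, from 0.78 (SRSF11) to 1.60 (SRSF6), where 33% of all genes were. In hnRNPc, SRSF4 was higher with 14.3 to 18.5 peaks per 100000 (log2 difference 0.76, limma adjusted p = 7.25e-07), and 32.4% of all genes were. SRSF3 (-0.73) and SRSF5 (-0.82) were lower, where 31.8% of all genes were and 64.1% were called in either direction. With equal list length 8 genes were higher, SRSF4 again the most at 1.48, where 30.2% of all genes were higher, and SRSF3 and SRSF5 were not called (-0.22 and -0.21). With summed read numbers 9 genes were higher in hnRNPA1 and all 10 in hnRNPc, where 54.1% and 52.4% of all genes were.

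**Figure D3:**
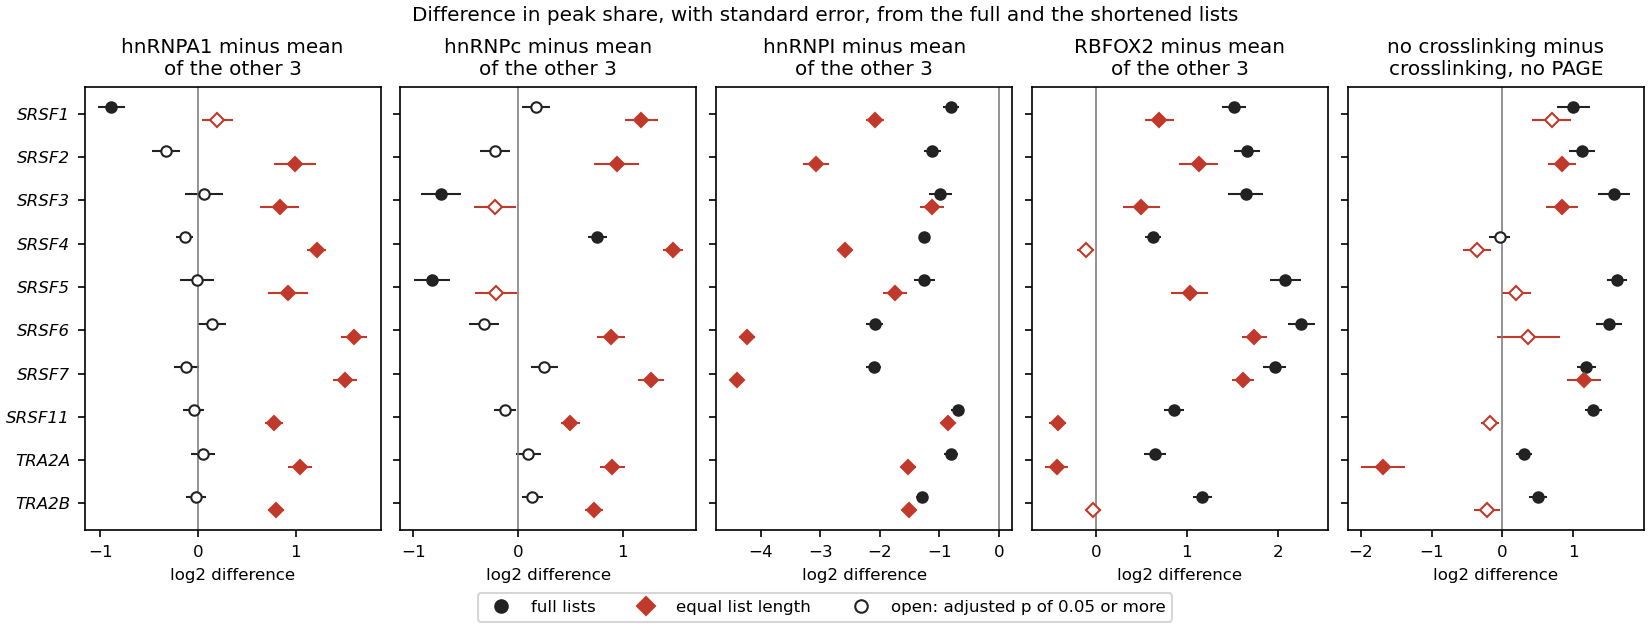
Log2 difference in peak level with its standard error for each gene, from the full lists (black circles) and from lists of equal length (red diamonds), with open symbols where the adjusted p was 0.05 or more. The hnRNPI differences are below 0 for all 10 genes in both settings, while the hnRNPA1 differences lie near 0 over the full lists, except SRSF1, and above 0 with equal list length.

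Other genes of the SR pathway, 17 in all, were counted the same way: further SR and SR-related proteins (SRSF9, SRSF10, SRSF12, SRRM1, SRRM2, SON, PNISR, ACIN1, SREK1, LUC7L3), the kinases that phosphorylate them (CLK1 to CLK4, SRPK1, SRPK2) and their nuclear import receptor TNPO3. In the hnRNPI libraries 14 were lower and 2 higher, where 44.1% and 31% of all genes were, and with equal list length 13 were lower and 1 higher, where 44.9% and 35.2% of all genes were. The lowest fitted log2 differences over the full lists were those of CLK1 (-2.48), with 1 to 3 hnRNPI peaks per library, and SRSF10 (-1.95), with 0 to 1. With equal list length CLK1 had 0 to 1 hnRNPI peaks and SRSF10 had 0 in every hnRNPI library. TNPO3 was higher, at 0.64 over the full lists and 1.14 with equal list length. In the RBFOX2 libraries 12 were higher and 3 lower, where 43% and 41.2% of all genes were. With equal list length 8 were higher and 5 lower, a share near that of all genes (46.4% and 29.6%). SRRM2 had a difference of 2.18 over the full lists and 0.97 with equal list length, and TNPO3 one of -1.62 and -1.58.

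Per kb of span, hnRNPA1 had 3.08 ± 0.638 peaks in SRSF1 (SD, n = 4), 2.84 ± 0.258 in SRSF2 and 2.77 ± 0.231 in SRSF6, which did not differ beyond their spread, and 0.589 ± 0.0206 in SRSF5. SRSF5 also had the lowest density for hnRNPc and hnRNPI, and its span reaches far 5′ of its sites. For RBFOX2 its density, 0.633 ± 0.110, did not differ beyond the spread from TRA2A (0.635 ± 0.0920) and SRSF11 (0.640 ± 0.128). hnRNPI was densest in SRSF1, at 2.28 ± 0.464 peaks per kb, although its strongest peak there had only 30 to 39 reads. In TRA2A it had 0.607 ± 0.0704 peaks per kb but a strongest peak of 325 to 459 reads.

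Over the 16 libraries, the level of each member correlated with the mean of the 10 at Pearson r from 0.776 (SRSF4) to 0.982 (SRSF6), a description over libraries that share list length within a protein. Each member is itself part of that mean, so some of its correlation is built in. The 3 other genes most like that mean had r of 0.991 to 0.993, and no table used here pairs their identifiers with a symbol.

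The libraries without crosslinking asked which peaks co-purify without a covalent bond. Of the sites, 59 of 143 for hnRNPA1, 48 of 119 for hnRNPc, 42 of 82 for RBFOX2 and 5 of 39 for hnRNPI overlapped a peak in both libraries without crosslinking and PAGE. Those lists were shorter: 180477 and 196278 peaks for hnRNPA1, 187729 and 278452 for hnRNPc, 52842 and 61242 for RBFOX2, 44086 and 78945 for hnRNPI. A site missing from them was not listed there, which at unknown depth does not show that it was absent.

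Several of the leading sites were present without crosslinking. The SRSF1 hnRNPA1 site had 2980 and 3441 reads without crosslinking, more than the 804 to 1011 reads of the crosslinked libraries. The leading hnRNPA1 site of SRSF4, chr1:29475221-29475543, also had more, with 411 reads or above in both libraries against 157 to 191. The ranges overlapped at the leading hnRNPA1 sites of SRSF11 (410 and 595 against 242 to 453) and SRSF5 (306 and 355 against 278 to 361). Those of SRSF2, SRSF3, SRSF6, SRSF7, TRA2A and TRA2B had fewer reads or no peak. None of these numbers was scaled to depth. The SRSF6 RBFOX2 site had 262 and 331 reads without crosslinking, and all 5 RBFOX2 sites of SRSF6 were found in both libraries. The SRSF3 hnRNPc site had 190 and 174 reads. The leading hnRNPI sites of SRSF2, SRSF3, SRSF4, SRSF5, SRSF6 and TRA2B had no peak in either hnRNPI library without crosslinking. The TRA2A hnRNPI site had a peak in 1 of them, with 6 reads. The hnRNPI site of SRSF11 had 7 and 11 reads and that of SRSF1 had 14 and 10, against 30 to 39 in the crosslinked libraries for SRSF1. The hnRNPA1 site in the middle of SRSF3 and the leading RBFOX2 sites of SRSF4 and SRSF11 were also without a peak in both libraries of their protein.

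**Figure D4:**
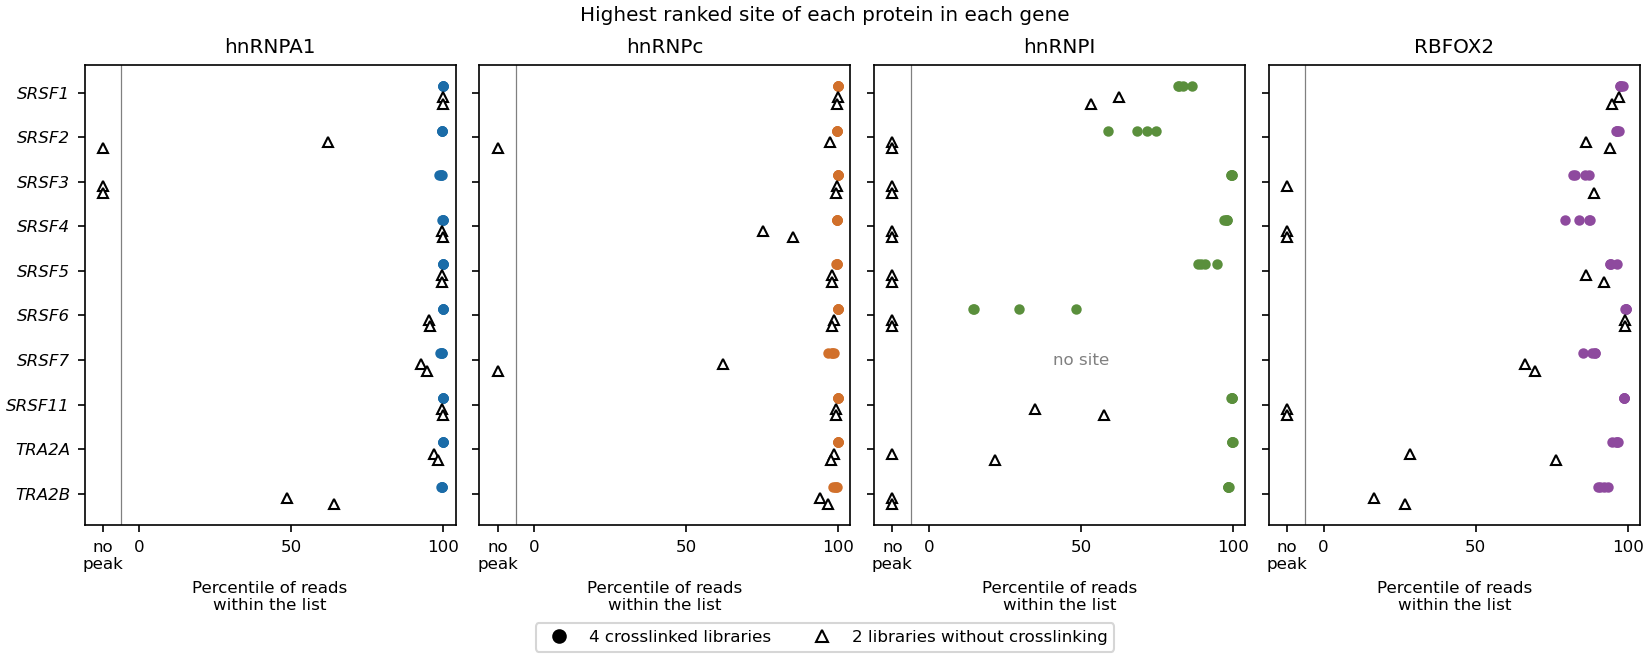
Percentile of the read number within its own list for the highest ranked site of each protein in each gene, in the 4 crosslinked libraries (filled circles) and the 2 libraries without crosslinking (open triangles), all without PAGE. Triangles left of the grey line had no peak over the site. For hnRNPI, 2 of 9 leading sites had a peak in both libraries without crosslinking, against 8 of 10 for hnRNPA1, 8 of 10 for hnRNPc and 7 of 10 for RBFOX2, and the lists differ in length. No share over sites in other genes was taken.

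In levels, 9 of the 10 genes were higher without crosslinking, on the mean over the 4 proteins, in a limma fit of 13477 genes of which 21.8% were higher and 58.8% called. The log2 difference ran from 0.31 (TRA2A) to 1.62 (SRSF5), with a median of 1.16 over the members and -0.26 over all genes, and SRSF4 was not called (-0.04). SRSF5 had 11.6 and 11.7 peaks per 100000 for hnRNPA1 without crosslinking, against 3.40 and 3.06 with it, and 8.52 and 8.62 for hnRNPc against 2.04 and 2.76. For hnRNPI it had 13.6 and 7.60 against 1.70 and 1.46, and for RBFOX2 18.9 and 21.2 against 10.2 and 13.6. The values without crosslinking were above the crosslinked ones for each protein (limma adjusted p = 3.39e-06, 3.07-fold).

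With lists shortened to 44086 peaks, 3 genes were higher, SRSF2, SRSF3 and SRSF7, where 27.5% of all genes were, and TRA2A was lower, where 20.3% of all genes were. SRSF5 was then not called (0.19). With summed read numbers 5 genes were higher and 3 lower, where 17.8% and 55.6% of all genes were. Among the libraries with PAGE none of the 10 was called, where 9.25% of all genes were. Without the short hnRNPc list SRSF1, SRSF2 and SRSF5 were higher and TRA2A lower, where 8.93% and 26.3% of all genes were. TRA2A turned from 0.31 to -1.69 (limma adjusted p = 0.00135). Its full lists held 32 and 29 peaks for hnRNPA1 without crosslinking against 33 and 35 with it, but 1 and 2 for hnRNPI against 16 and 14, and 6 and 6 for RBFOX2 against 17 and 20. In hnRNPI its level was 2.27 and 2.53 per 100000 without crosslinking against 4.53 and 4.09 with it, and in hnRNPA1 17.7 and 14.8 against 6.61 and 6.69.

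The remaining groups are given as values. With medium RNase (0.025 U) and PAGE, the 10 genes held 396 and 386 hnRNPA1 peaks in lists of 365593 and 408978, and with low RNase (0.005 U) 304 and 317 in lists of 515303 and 501950. SRSF11 had 100 and 90 hnRNPA1 peaks at medium and 68 and 81 at low RNase. For hnRNPc with PAGE, medium RNase gave 348 and 379 member peaks. Low RNase gave 287 in replicate 2 and 38 in replicate 1, whose list held only 3268 peaks and had none in 1 of the 10 genes.

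From 10000 cells hnRNPc had 311 and 300 member peaks and from 1000 cells 288 and 315, in lists of 175305 to 267111 peaks. RBFOX2 had 160 and 203 from 10000 cells and 88 and 99 from 1000 cells, in lists of 49247 and 72602 for the latter. RNase also differed, at 0.001 U for 10000 cells and 0.0001 U for 1000 cells. At 1000 cells the SRSF6 RBFOX2 site still had 120 and 160 reads and the SRSF11 RBFOX2 site 93 and 81. The 8 hnRNPc libraries titled 5k and 500, which the labels give as 50000 cells, held 227 to 294 member peaks. The 8 libraries from gel regions between 50 and 250 kDa held 4 to 29.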

How the data were processed

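TLC-CLIP peak lists of 68 libraries were used, 1 headerless list per library. The authors deposited coordinates, strand, a name and a p-value per peak, and CLIPper is the caller named in the file names. The deposited peak name ends in a count, read here as reads. Build hg19, bcl2fastq, STAR 2.7.3a and UMI-tools 1.0.1 are named per the submitters' processing notes; the caller's settings and the annotation used were "not given in the sources used here". The members, lists and tests were chosen with earlier results of these data known.

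Peaks were counted by gene identifier. Levels were tested with limma 3.58.1 in R 4.3.3 (lmFit, eBayes with trend, RecJ as covariate between proteins), keeping genes with a mean of at least 1 peak, at adjusted p below 0.05. Named were all members, many but not all of the highest ranked sites of each protein in each, some sites shared by 4 proteins, and values of at most 4 pathway genes. For all 27 listed genes the chromosome matched a RefSeq gene table, and strand matched in the 25 it covers. On simulated peak counts with 200 genes changed 4-fold, the fit recovered 97.5% (hnRNPI against the rest, 14272 genes) and 93.5% (no crosslinking, 13851 genes). The simulated counts were Poisson, without further spread between replicates, and every other gene was left unchanged. The changed genes came only from those with higher mean peak counts, so these rates need not hold for the real lists. Depth is unknown. RNA abundance was not measured here, so abundance and binding cannot be told apart. SRSF1, SRSF3 and SRSF11 have pseudogene copies in RefSeq, and reads shared with them were not separated. Alternatives changed the pseudocount (0.1, 2), filter, p-value (below 1e-05), clustering of peaks under 30 nt apart, summed reads, centring, trend, block, single libraries, PAGE, RecJ and list length.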

Additional observations from a re-analysis of the deposited data

Results flagged for a closer look

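Among 40 groups of 4 libraries, 3 had a library set apart from the other 3 by Dixon's test, and chance gives about 1 in 20. SRSF2 had 1.70 peaks per 100000 (6 peaks) in hnRNPI without RecJ, replicate 1, against 0.876 to 0.895 in the others. SRSF3 had 9.32 (15 peaks) in RBFOX2 with RecJ, replicate 1, against 6.35 to 6.86. SRSF6 had 0.877 (3 peaks) in hnRNPI without RecJ, replicate 2, against 0.566 to 0.597, a gap of 1 peak.

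The difference without crosslinking varied between the 4 proteins for 3 genes, in a limma F test over 13477 genes that was added after the data were seen; 56.9% of all genes were called by it. TRA2A (limma adjusted p = 0.00138) differed on the log2 scale by 1.22 (hnRNPA1), 0.86 (hnRNPc), -0.73 (hnRNPI) and -0.13 (RBFOX2). SRSF7 (limma adjusted p = 0.00197) differed by 1.69, 0.20, 2.28 and 0.57 in the same order. SRSF5 (limma adjusted p = 0.0293) differed by 1.71, 1.66, 2.36 and 0.74.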

How the results depend on the processing

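The hnRNPI result was the steadiest: 9 or 10 of the 10 genes were lower under every setting except the libraries with PAGE, where 0 were called for hnRNPI, 0 for hnRNPA1, 0 for RBFOX2 and 0 for the lack of crosslinking, while 2 were higher in hnRNPc (1 higher and 2 lower without PAGE). At an unadjusted limma p below 0.05 the counts there were 0, 0, 0, 3 and 8. That outcome rested on 1 hnRNPc library of 3268 peaks (low RNase, replicate 1): without it, and chosen after the data were seen, 10 genes were lower in hnRNPI, 7 were higher in hnRNPc, 6 were higher in RBFOX2, and without crosslinking 3 were higher and 1 lower (4 called, against 9 higher without PAGE). The hnRNPA1 count of 1 became 2 with a pseudocount of 2, 2 without a filter, 2 without the trend, 4 with clusters, 6 with p below 1e-05, 9 with summed reads, 9 with equal list length and 8 without the RBFOX2 libraries. The hnRNPc count of 3 became 5 with clusters, 7 with p below 1e-05, 10 with summed reads, 8 with equal list length and 7 without the RBFOX2 libraries. The count without crosslinking, 9, became 4 with equal list length. Equal list length and leaving out RBFOX2 were chosen after the data were seen.

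Signs turned for 36 of 1004 values of called genes. With summed reads the log2 differences were 1.17 for SRSF1 in hnRNPA1, 1.86 for SRSF3 and 0.56 for SRSF5 in hnRNPc, and in RBFOX2 -1.22 (SRSF3), -1.95 (SRSF4), -0.64 (SRSF11), -1.43 (TRA2A) and -1.24 (TRA2B). Without crosslinking they were -0.14 (SRSF11), -1.76 (TRA2A) and -0.67 (TRA2B). With equal list length they were 0.20 for SRSF1 in hnRNPA1, -0.11 (SRSF4), -0.42 (SRSF11), -0.43 (TRA2A) and -0.027 (TRA2B) in RBFOX2, and -0.17 (SRSF11), -1.69 (TRA2A) and -0.22 (TRA2B) without crosslinking. With p below 1e-05 the last was -1.17 for TRA2A and -0.046 for TRA2B. With PAGE they were 2.94 (SRSF3) and 2.65 (SRSF5) in hnRNPc, -0.46 (SRSF3), -0.17 (SRSF4), -0.93 (SRSF11) and -0.56 (TRA2A) in RBFOX2, and -0.14 (SRSF3), -1.50 (TRA2A) and -0.19 (TRA2B) without crosslinking. Less the short list they were 0.61 and 0.75, -0.39 (SRSF11) and -0.047 (TRA2A), and -1.12 (TRA2A) and -0.11 (TRA2B). The causes were not tested.

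Leaving out 1 library at a time gave 1 to 2 genes for hnRNPA1, 3 to 4 for hnRNPc, 10 to 10 for hnRNPI and for RBFOX2, and 8 to 9 without crosslinking. Sites then numbered 152 to 156, 128 to 134, 44 to 49 and 86 to 95 for hnRNPA1, hnRNPc, hnRNPI and RBFOX2. Replicate numbers did not pair the samples (28 pairs, r from -0.015 to 0.053). The replicate block changed none of 55 calls or directions and left 10 genes called for hnRNPI.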
